A study of Mus musculus with 16 samples.

Results

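The ETS factors that act downstream of the kinase ERK were described here as 10 mouse genes taken by symbol from a deposited count table of 52636 gene IDs: Etv1, Etv4, Etv5, Elk1, Elk3, Elk4, Ets1, Ets2, Etv6 and Erf. All 10 were found, and all 10 passed the filter on low counts that left 12742 genes for testing. RNA depleted of ribosomal RNA was sequenced from mouse embryonic stem cells of the line CRAFR26 that had been brought to the pluripotent state labelled RSC. The line carries a c-RAF kinase construct that 4-hydroxytamoxifen (4OHT) switches on, and 2 clones, numbered 4 and 8, were used, each of which is 1 line. Cells of every group had been kept in N2B27 medium with the Wnt-secretion inhibitor IWP2 at 2 µM, LIF and the MEK inhibitor PD0325901 at 1 µM, and were moved for 48 h to 250 nM of the FGF receptor inhibitor PD173074 in place of the MEK inhibitor. The group 0h was then collected with no 4OHT, 2h and 4h when 4OHT at 250 nM had been present for 2 h or 4 h, and the group rev after 4 h of 4OHT followed by 2 h of MEK inhibitor. Each group held 4 libraries, 2 per clone. The labels do not say whether the 2 libraries of a clone came from separate cultures, so the spread between these libraries may be technical. P-values within a clone, or for differences between clones, measure that spread alone. Those of comparisons over both clones measure it together with differences between the clones in their response. No group of 6 h with 4OHT and without MEK inhibitor was analysed here, so rev differs from 4h both by the inhibitor and by 2 h more in culture. The labels do not say whether 4OHT stayed in the medium during those 2 h, nor at what dose the inhibitor was given at rev, so effects of the inhibitor, of the added time and of any withdrawal of 4OHT cannot be told apart.

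ETS proteins share a winged helix-turn-helix domain that binds DNA around a GGA core, and several are phosphorylated directly by ERK. Etv1, Etv4 and Etv5 form the PEA3 group of activators, whose genes are repressed by Capicua in many cell types and are commonly read as outputs of FGF and ERK signalling. Elk1, Elk3 and Elk4 are ternary complex factors, which bind serum response elements together with serum response factor and carry ERK to immediate-early genes such as Egr1 and Fos. Ets1 and Ets2 are activators whose activity rises on ERK phosphorylation, whereas Etv6 and Erf are repressors, and Erf leaves the nucleus when ERK phosphorylates it. In pluripotent cells Etv5 is expressed in the naive state and takes part in its exit. Much of the control of this family acts on the proteins, and RNA levels do not show it.

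The libraries held between 4.31 and 10.4 M counts each, with a median of 8.03 M, and 8 features that each held over 1% of all counts took 46.7% to 78.9% of a library. Outside them 1.30 to 5.46 M counts remained, the fewest in the first rev library of clone 8. Levels are TMM-scaled CPM over the tested genes, and 3 counts were worth 0.21 to 0.908 CPM, which covers counting error alone. Libraries separated by clone along the first principal component, with 51.0% of the variance; on component 3, with 8.57%, all 0h and 4h libraries lay on one side and all 2h and rev libraries on the other. What moved libraries along that component was not tested, and 4h against 0h stays within one side, as does rev against 2h. As a check of the labelled state, the cells held 877 to 1493 CPM of 7 pluripotency markers and 380 to 999 CPM of 4 naive markers, and no marker looked for was at 0 in every library. The lowest pluripotency and naive sums were both at 4h, in the first library of clone 4. The naive sum at 4h ran from 380 to 911 CPM against 625 to 888 CPM at 0h. The 4 formative and rosette markers summed to 31.4 to 145.7 CPM. Their highest sum was in that same 4h library, and at 4h they ran from 43.2 to 145.7 CPM against 41.7 to 101.6 CPM at 0h. Single markers went both ways between the group means of 0h and 4h. Nanog (440 to 288 CPM), Tfcp2l1 (318 to 243), Dppa5a (220 to 181) and Klf4 (84.8 to 57.0) were lower at 4h. So were Sox2 (222 to 217 CPM), Zfp42 (102 to 97.5) and Otx2 (12.6 to 11.6). Utf1 (33.6 to 84.3 CPM), Lin28a (23.5 to 61.5) and Tdgf1 (73.1 to 122) were higher, as were Pou5f1, Esrrb, Podxl, Dnmt3b and Pou3f1. The part of these differences between groups in the results was not tested. Sums of the other lists reached 9.99 CPM for 6 primitive endoderm genes, 8.64 CPM for 4 gastrulation genes and 3.47 CPM for 4 fibroblast genes. The 3 trophoblast markers reached 18.1 CPM in the first 4h library of clone 4 against at most 10.6 CPM in the other groups. In the same library the 3 neural markers reached 24.0 CPM against at most 9.34 CPM in the other groups. Most of each sum was 1 gene, Gata3 with 16.7 CPM and Pax6 with 21.7 CPM. That library also held the highest values of Etv4, Etv1 and Ets1, and the part of these markers in the results was not tested.

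Per kilobase of exon, the members covered a wide range of levels before induction, with Etv5 first and Ets1 last. At 0h the level of Etv5 was 23.3 ± 2.17 CPM per kb (SD, n = 4), followed by Erf at 14.3 ± 0.465. Etv6 (3.56 ± 0.587), Ets2 (3.47 ± 1.41) and Elk1 (2.88 ± 0.212) came next, and the libraries of each overlapped those of its neighbour among these 3. Elk4 (1.76 ± 0.329), Etv4 (0.885 ± 0.641), Elk3 (0.483 ± 0.233), Etv1 (0.158 ± 0.0708) and Ets1 (0.0921 ± 0.0483) followed, again with each overlapping the next. At 4h the level of Etv4 was 8.85 ± 3.36 CPM per kb, which put it in place 3, with libraries that overlapped those of Etv6 (5.65 ± 0.233). At rev Etv4 was in place 7, as at 0h, at 1.18 ± 0.629 CPM per kb. Etv5 and Erf kept the first and second place in all 4 groups, without overlap between them or with the next gene. Ets1 and Etv1 were the least abundant at 0h, with 2 to 8 counts per library for Ets1 and 7 to 23 for Etv1.

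**Figure D1:**
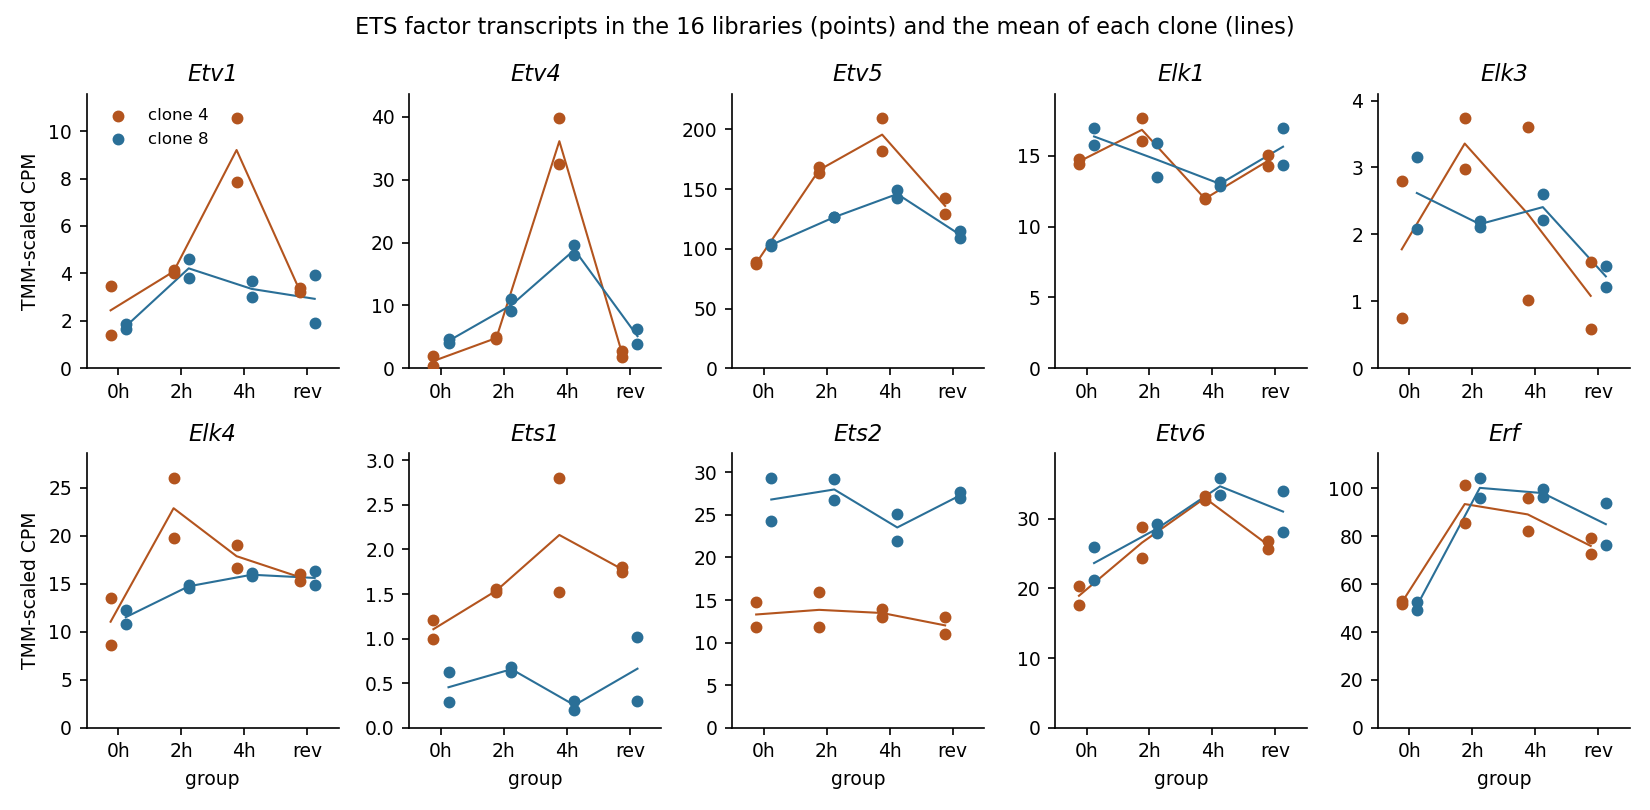
TMM-scaled CPM (y axis, from 0, a separate range per gene) of the 10 ETS factors in each of the 16 libraries, by group (x axis), with orange for clone 4 and blue for clone 8; points are libraries and lines join the mean of each clone. Etv4 peaks at 4h in both clones, at 39.7 and 32.5 CPM in clone 4 and 19.6 and 18.1 CPM in clone 8, Erf is high from 2h on, and Ets2 separates by clone in every group.

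The sequence before the transcription start was available in the RefSeq promoter table (build GRCm38.p6) for 8 members, with 12 windows of 250 bases; Etv4 and Ets1 have no entry there. The words searched on both strands were the Capicua sites TGAATGAA and TGAATGGA, the ETS core GGAAGT, the longer ETS site CCGGAAGT, which contains that core, and the CArG box of serum response factor. Elk4 held the ETS core in all 3 of its windows and the longer site in 1, and Etv5 held the core in the window of its second start. The windows of the other 6 members, Etv1, Etv6, Ets2, Elk1, Elk3 and Erf, held none of the words. Over all 32851 windows of the table, 19.7% held GGAAGT, 2.88% CCGGAAGT, 1.08% TGAATGAA, 1.01% TGAATGGA and 1.47% a CArG box. The stretches printed here, of Elk4 (chr1:132007370-132007606, plus strand), Etv5 (first start, chr16:22439720-22439820, minus strand) and Erf (chr7:25250762-25251008, minus strand), belong to 3 of the members whose RNA rose on induction; each runs 5′ to 3′ and ends where the annotated gene begins. Capitals mark the searched words, which in Elk4 begin at positions -190 and -68 from the RefSeq start and are absent from these stretches of Etv5 and Erf.
Elk4: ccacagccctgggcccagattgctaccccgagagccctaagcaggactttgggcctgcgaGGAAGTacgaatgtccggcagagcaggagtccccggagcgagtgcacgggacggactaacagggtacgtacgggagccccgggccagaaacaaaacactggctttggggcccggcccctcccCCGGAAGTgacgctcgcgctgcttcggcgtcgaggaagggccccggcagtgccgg
Etv5: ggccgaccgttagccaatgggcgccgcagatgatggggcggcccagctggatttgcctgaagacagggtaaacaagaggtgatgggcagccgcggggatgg
Erf: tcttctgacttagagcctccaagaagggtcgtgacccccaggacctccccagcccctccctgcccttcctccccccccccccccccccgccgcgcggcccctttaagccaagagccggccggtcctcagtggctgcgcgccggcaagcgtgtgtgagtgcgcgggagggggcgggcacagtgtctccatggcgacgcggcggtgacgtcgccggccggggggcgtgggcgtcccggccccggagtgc
A match to these letters is a description of the sequence and not a site shown to be bound.

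After 2 h of induction, 6 of the 10 members were higher than at 0h at an adjusted p under 0.05 and none was lower, where 9.49% of all tested genes were called higher and 7.48% lower. These were the 3 PEA3 genes, Elk4 and both repressors, and the median log2 change of the 10 was 0.53 against 0.00 for all tested genes. After 4 h, 6 members were higher than at 0h and none lower, against 7.35% and 5.56% of all genes, with a median log2 change of 0.61 against -0.01. The genes called at 4h were Etv1, Etv4, Etv5, Elk4, Etv6 and Erf. Both comparisons use the same 0h libraries, so their values are given side by side below. No group of cells without the construct was analysed here, so effects of the construct and of 4OHT itself cannot be told apart. The 2h and 0h libraries also lay on opposite sides of component 3. In bulk RNA, a change in the number of cells that express a gene and a change of RNA per cell cannot be told apart.

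**Figure D2:**
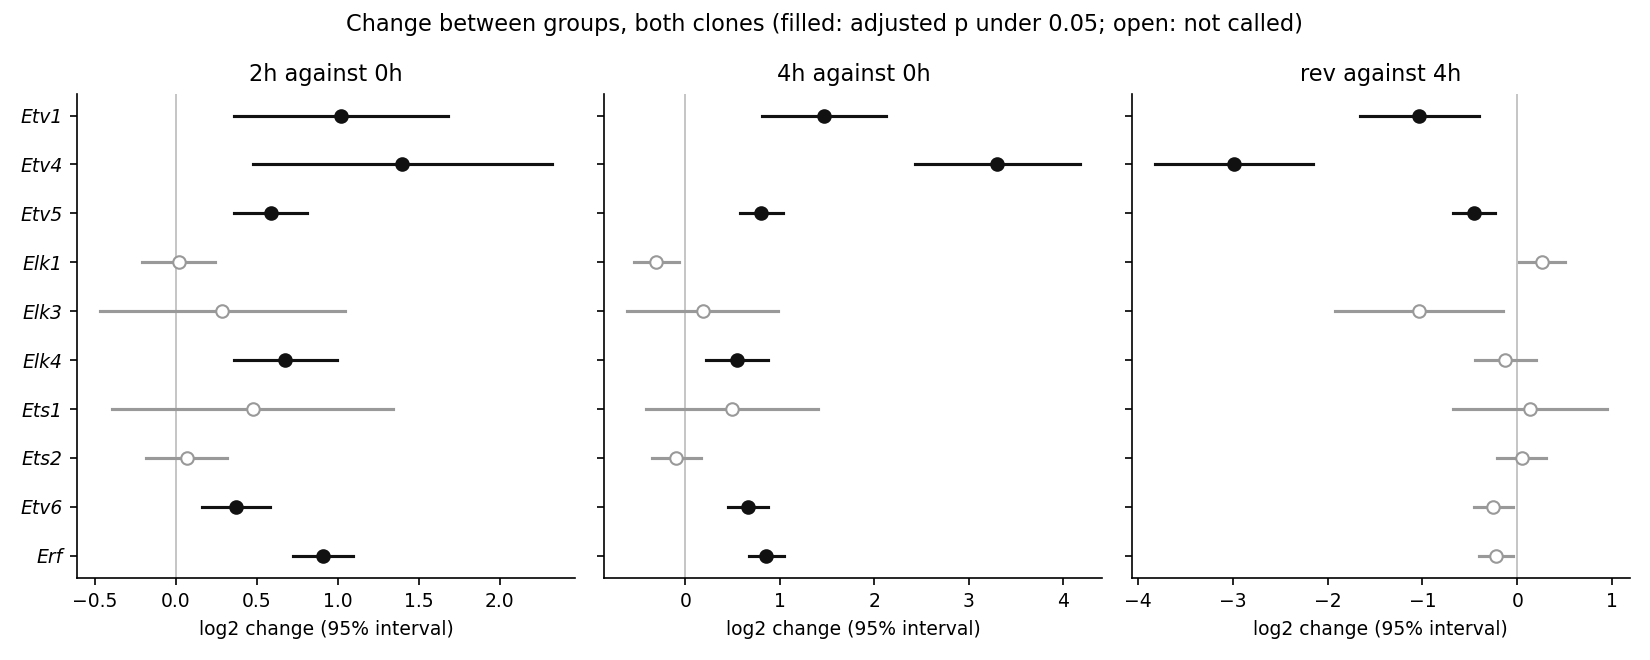
Log2 change (x axis, points) with its 95% interval (lines) of each ETS factor (y axis) over both clones, with 1 panel each for 2h minus 0h, 4h minus 0h and rev minus 4h; filled points passed an adjusted p under 0.05, and each panel has its own x range. Etv4 has the widest swing, 3.30 at 4h against 0h and -2.99 at rev against 4h, while the intervals of Ets1, Ets2 and Elk3 include 0 at 2h and 4h.

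Etv4, a PEA3 activator, was the member that moved farthest. The members are protein-coding genes, and positions are given on GRCm38 from GENCODE M21; Etv4 (ENSMUSG00000017724) lies at chr11:101769742-101785371 on the minus strand. At 0h its level was 2.00 and 0.303 CPM in the 2 clone 4 libraries, the second from 2 counts, and 4.67 and 4.02 CPM in those of clone 8. At 2h it was 4.93 and 4.70 CPM in clone 4 and 11.02 and 9.11 CPM in clone 8, and at 4h 39.7, 32.5, 19.6 and 18.1 CPM in the same order. Every 2h library lay above every 0h library, and every 4h library above every 2h library. The log2 change was 1.40 (SE 0.443, adjusted p = 0.0354) at 2h and 3.30 (SE 0.417, adjusted p = 3.71e-05), or 9.88-fold, at 4h. At rev the 4 libraries were back at 2.71, 1.75, 3.94 and 6.27 CPM, and their range overlapped that of 0h. The Etv4 call at 2h was lost without any 1 of 5 libraries (0h clone 4 first and second, 0h clone 8 second, 2h clone 8 first and second), at log2 changes of 1.07 to 1.54 and adjusted p of 0.0543 to 0.104, while the call at 4h kept its side of the threshold under all 25 alternatives.

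Etv5, the most abundant member and a PEA3 factor of pluripotent cells, rose less in fold but from a high level. The gene (ENSMUSG00000013089) lies at chr16:22381309-22439719 on the minus strand. Its level at 0h was 88.7 and 87.2 CPM in clone 4 and 102.3 and 104.2 CPM in clone 8. At 2h it was 163.5 and 168.4 CPM in clone 4 and 126.6 and 126.3 CPM in clone 8, and at 4h 182.0 and 209.0 CPM against 142.7 and 149.0 CPM. The libraries of 2h and of 4h all lay above those of 0h, and clone 4 passed from below clone 8 at 0h to above it. The log2 change was 0.59 (SE 0.108, adjusted p = 0.00129) at 2h and 0.81 (SE 0.108, adjusted p = 7.31e-05) at 4h. With library totals in place of TMM scaling, the 2h value was 0.69 with an adjusted p of 0.0838, which ends that call.

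Etv1 (ENSMUSG00000004151, chr12:38779380-38870484, plus strand), the third PEA3 gene, was scarce throughout. Its 4 libraries at 0h held 1.40, 3.49, 1.66 and 1.87 CPM, those of 2h 4.15, 4.01, 3.80 and 4.63 CPM, and those of 4h 10.5, 7.87, 3.02 and 3.68 CPM, clone 4 first in each. All 2h libraries were above all 0h libraries, whereas at 4h the clone 8 libraries overlapped the range of 0h. The log2 change was 1.02 (SE 0.315, adjusted p = 0.0315) at 2h and 1.47 (SE 0.317, adjusted p = 0.00465) at 4h. Within clone 4 the 2h change was 0.66 and not called (adjusted p = 0.180). The Etv1 call at 2h was lost without any 1 of 5 libraries (0h clone 4 first, 0h clone 8 first and second, 2h clone 8 first and second), at log2 changes of 0.83 to 1.06 and adjusted p of 0.0558 to 0.109. Within clone 8 its log2 change at 4h was 0.91 (adjusted p = 0.157), and within clone 4 it was 1.88 (adjusted p = 2.95e-05).

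Among the ternary complex factors, Elk4 (ENSMUSG00000026436, chr1:132007607-132032612, plus strand) rose and the other two were not called. Elk4 held 8.59, 13.5, 12.2 and 10.8 CPM at 0h, 19.7, 25.99, 14.6 and 14.9 CPM at 2h, and 16.7, 19.0, 16.1 and 15.8 CPM at 4h. Every induced library lay above every 0h library, and the highest values were the clone 4 libraries of 2h. Its log2 change was 0.68 (SE 0.152, adjusted p = 0.00511) at 2h and 0.55 (SE 0.157, adjusted p = 0.0257) at 4h. Within clone 4 it was 1.01 (adjusted p = 5.91e-05) at 2h and 0.64 (adjusted p = 0.0136) at 4h, whereas within clone 8 it was called at neither time (0.35, adjusted p = 0.146, and 0.46, adjusted p = 0.113). The 4h call was lost without the first 0h library of clone 4 (log2 change 0.42, adjusted p = 0.0927) and without the second 4h library of clone 4 (0.53, adjusted p = 0.0609). With library totals both Elk4 calls were lost, at an adjusted p of 0.0662 for 2h and 0.364 for 4h.

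Elk1 (ENSMUSG00000009406, chrX:20933395-20950608, minus strand), which with serum response factor drives immediate-early genes, had lower values at 4h that did not pass the adjusted threshold. Its level was 14.8, 14.4, 15.8 and 16.96 CPM at 0h and 17.6, 16.03, 13.5 and 15.9 CPM at 2h. At 4h it ran from 11.9 CPM in clone 4 to 13.2 CPM in clone 8, with both clone 4 libraries under both of clone 8. All 4 libraries of 4h lay below all 8 of 0h and 2h. The log2 change at 4h against 0h was -0.31 (95% interval -0.55 to -0.07, unadjusted p = 0.0142, adjusted p = 0.0819). Elk3 (ENSMUSG00000008398, chr10:93247414-93311135, minus strand), a ternary complex factor that can repress, was measured from 4 to 30 counts per library over the 4 groups, and its log2 change at 4h had a 95% interval of -0.62 to 0.98. At that depth any change of Elk3 within this interval was compatible with the data.

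Neither Ets2 (ENSMUSG00000022895, chr16:95702075-95721051, plus strand) nor Ets1 (ENSMUSG00000032035, chr9:32636221-32757820, plus strand) was called on induction. Ets2 held 14.8 and 11.8 CPM at 0h in clone 4 and 24.3 and 29.3 CPM in clone 8, and at 4h 14.0 and 13.0 CPM in clone 4 and 21.9 and 25.1 CPM in clone 8. The 4h libraries overlapped those of 0h within each clone, and the log2 change was -0.09 with a 95% interval of -0.35 to 0.17. Ets1 was at 0.287 to 1.21 CPM at 0h and 0.201 to 2.80 CPM at 4h, partly under the level of 3 counts. Its log2 change at 4h was 0.49 with an interval of -0.42 to 1.40. The clones went opposite ways, with 1.05 in clone 4 (unadjusted p = 0.0364, adjusted p = 0.126) and -0.94 in clone 8 (adjusted p = 0.568), and their difference of -1.99 did not pass adjustment (unadjusted p = 0.0432, adjusted p = 0.284).

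Both repressors rose. Erf (ENSMUSG00000040857, chr7:25242561-25250761, minus strand), which ERK phosphorylation sends out of the nucleus, held 51.5, 53.1, 49.3 and 52.6 CPM at 0h, 85.5, 101.5, 104.3 and 96.1 CPM at 2h, and 82.3, 96.0, 96.5 and 99.5 CPM at 4h. The induced libraries of both times lay above all 0h libraries, in each clone alike. Its log2 change was 0.91 (SE 0.0876, adjusted p = 1.61e-06) at 2h and 0.86 (SE 0.0887, adjusted p = 3.88e-06) at 4h, and both Erf calls kept their side of the threshold under all 25 alternatives. Etv6 (ENSMUSG00000030199, chr6:134035700-134270158, plus strand), a repressor that can form polymers through its pointed domain, held 17.6, 20.3, 21.3 and 26.01 CPM at 0h, 24.4, 28.8, 29.2 and 27.9 CPM at 2h, and 32.7, 33.3, 33.5 and 35.8 CPM at 4h. Its 2h libraries overlapped those of 0h, and its 4h libraries lay above those of both earlier groups. The log2 change of Etv6 was 0.37 (SE 0.0997, adjusted p = 0.0156) at 2h and 0.66 (SE 0.101, adjusted p = 0.000244) at 4h. The 2h call of Etv6 was lost without the first 0h library of clone 4, the first 0h library of clone 8 or the second 2h library of clone 4, at log2 changes of 0.32 to 0.33 and adjusted p of 0.0518 to 0.0591. Within clone 8 the 2h change of Etv6 was 0.29 and not called (adjusted p = 0.117). With library totals the Etv6 calls were lost at an adjusted p of 0.351 for 2h and 0.162 for 4h.

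Between 2 h and 4 h of induction, Etv4 alone among the members was called, as higher at 4h; 5.78% of all genes were higher and 6.36% lower. Its log2 change was 1.91 (SE 0.350, adjusted p = 0.00205), and it was called in each clone, at 2.92 in clone 4 and 0.91 in clone 8. Within clone 4, Etv1 was also called higher (1.21, adjusted p = 0.000955) and Elk1 lower (-0.49, adjusted p = 0.0210), against -0.36 (adjusted p = 0.512) and -0.18 (adjusted p = 0.508) within clone 8. The share of all genes called within a clone was not counted for the fit that gave these values. In fits of each clone alone, 3376 of 12742 genes were called in clone 4, with 3 of the 10 members, a share near that of all genes. In clone 8 alone 1206 genes were called, with 1 member, again near the share of all genes. Over both clones, 2 members other than Etv4 had an unadjusted p under 0.05, namely Etv6 with 0.29 (adjusted p = 0.0525) and Elk1 with -0.32 (adjusted p = 0.0601). The share of all genes at that unadjusted level was not counted. For Etv6 the adjusted p by DESeq2 was 0.0433, and it was 0.0420 to 0.0493 in edgeR without the first or second 0h library of clone 4, the second 0h library of clone 8, the first 4h library of clone 8 or the first rev library of clone 8. For Elk1 it was 0.0300 without the first 2h library of clone 8, at a log2 change of -0.40. The log2 change of Erf from 2h to 4h had a 95% interval of -0.23 to 0.13, and that of Etv5, at 0.22, one of -0.00 to 0.44.

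The comparison of rev with 4h described which members were lower after the 2 h with MEK inhibitor. Effects of the inhibitor, of the added time and of any withdrawal of 4OHT cannot be told apart in it. These 2 groups also lay on opposite sides of component 3, and what moved them there was not tested. Against 4h, 3 of the 10 members were lower at rev and none was higher, where 5.1% of all genes were called lower and 4.5% higher. The 3 were the PEA3 genes, and the median log2 change of the 10 members was -0.24 against 0.00 for all genes. An unadjusted p under 0.05 was reached by 7 members, and the share of all genes at that unadjusted level was not counted. Etv4 changed by -2.99 (SE 0.401, adjusted p = 0.0001), and all its rev libraries lay below all its 4h libraries in both clones. For Etv5 the rev libraries were at 142.3 and 129.4 CPM in clone 4 and 114.4 and 108.7 CPM in clone 8, each below all 4h libraries, with a log2 change of -0.46 (SE 0.107, adjusted p = 0.0102). For Etv1 they were at 3.39, 3.20, 3.94 and 1.92 CPM, below 4h in clone 4 and overlapping it in clone 8, with a log2 change of -1.03 (SE 0.301, adjusted p = 0.0348). The Etv1 call was lost without either 4h library or either rev library of clone 4 or without the second rev library of clone 8 (log2 changes -1.001 to -0.68, adjusted p of 0.0854 to 0.232). Within clone 8 the change of Etv1 was -0.36 and not called (adjusted p = 0.690). The Etv5 call was lost without the second 4h library of clone 4 (-0.38, adjusted p = 0.0514) and with library totals (-0.66, adjusted p = 0.101), while that of Etv4 held in all 25 alternatives.

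No repressor or ternary complex factor was called at rev against 4h. Erf at rev held 79.4, 72.6, 93.9 and 76.2 CPM, below its 4h libraries within each clone, and its log2 change of -0.22 did not pass adjustment (adjusted p = 0.112). Without the first rev library of clone 8, in which 78.9% of counts fell in the 8 dominant features, the value for Erf was -0.28 with an adjusted p of 0.0448, and the PEA3 genes kept their calls. Etv6 at rev held 25.6, 26.9, 33.9 and 28.1 CPM, with a log2 change of -0.25 (adjusted p = 0.116). Elk4 held 16.04, 15.3, 16.3 and 14.8 CPM, with a log2 change of -0.12 (95% interval -0.44 to 0.20, adjusted p = 0.659). Elk1 was at 15.02, 14.3, 16.96 and 14.3 CPM, above all its 4h libraries, with a log2 change of 0.26 (adjusted p = 0.166), and Elk3 had -1.04 (adjusted p = 0.128), and was called when no filter on low counts was used (-1.03, adjusted p = 0.0371). Whether the fall of Etv4 differed from that of Erf was not tested.

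Against 0h, 3 members were higher at rev and none was lower, where 5.51% of all genes were higher and 4.94% lower. Effects of 4OHT, of the MEK inhibitor and of the added time cannot be told apart in this comparison. The 0h and rev libraries also lay on opposite sides of component 3, and what moved them there was not tested. The log2 change from 0h to rev was 0.63 (SE 0.0889, adjusted p = 0.000298) for Erf, 0.41 (SE 0.102, adjusted p = 0.0148) for Etv6 and 0.35 (SE 0.109, adjusted p = 0.0447) for Etv5. All rev libraries of Erf and Etv5 lay above all their 0h libraries, while those of Etv6 overlapped. Within clone 4 the change of Etv5 was 0.63 (adjusted p = 3.04e-05), and within clone 8 it was 0.11 and not called (adjusted p = 0.573); that of Etv6 was not called within clone 8 either (0.37, adjusted p = 0.0895). Elk4 had 0.43 (adjusted p = 0.0916), with rev libraries above all 0h libraries, and its adjusted p was 0.0426 without the second 2h library of clone 4. Etv4 had 0.32 with a 95% interval of -0.77 to 1.40 and Etv1 0.44 with -0.29 to 1.16, wide ranges that hold both 0 and sizeable changes. The Etv5 call was lost without any 1 of 7 libraries (both 0h and both rev libraries of clone 4, both rev libraries of clone 8, and the first 2h library of clone 4), at log2 changes of 0.26 to 0.38 and adjusted p of 0.0519 to 0.167, and the Etv6 call was lost without the first 0h library of clone 4 (0.36, adjusted p = 0.0571). With library totals, under which the median of all genes moved to -0.24, all 3 calls were lost, with 0.36 (adjusted p = 0.426) for Erf, 0.16 (0.754) for Etv6 and 0.11 (0.823) for Etv5.

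Between rev and 2h no member was called by edgeR and none by DESeq2, where edgeR called 1.78% of all genes in either direction. An unadjusted p under 0.05 was reached by 4 members, and the share of all genes at that unadjusted level was not counted. These 4 were Etv4 with -1.08 (adjusted p = 0.228), Elk3 with -1.14 (0.167), Erf with -0.27 (0.118) and Etv5 with -0.24 (0.294). Within clone 4 Etv4 (-1.13, adjusted p = 0.0341), Elk3 (-1.66, 0.028) and Elk4 (-0.54, 0.0321) were called lower when each clone had its own group terms, and within clone 8 Etv4 (-0.86, 0.0469). The share of all genes called in that fit was not counted, so these calls have no background beside them. In the separate fits of each clone alone, 435 of 12742 genes were called in clone 4 and 449 in clone 8, with 0 and 1 of the members. When the libraries of 2h and 4h were set together against those of 0h and rev, 6 members were higher and none lower, against 4.84% and 3.44% of all genes. They were Etv4 (4.57-fold, adjusted p = 7.57e-05), Etv1 (2.04-fold, 0.00556), Erf (1.48-fold, 6.11e-06), Etv5 (1.43-fold, 0.000178), Elk4 (1.32-fold, 0.0253) and Etv6 (1.24-fold, 0.00837). The Elk4 call was lost without the first 0h, the second 4h or either rev library of clone 4, at log2 changes of 0.34 to 0.39 and adjusted p of 0.0505 to 0.0578. With library totals the calls of Elk4 (0.55, adjusted p = 0.0569) and Etv6 (0.47, adjusted p = 0.121) were lost, and neither was called within clone 8 (0.20, adjusted p = 0.385, and 0.24, adjusted p = 0.131). Within clone 4 Elk3 was called as well, at 1.17 (adjusted p = 0.0178), against 0.24 (adjusted p = 0.747) within clone 8.

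The clones differed in the level of 2 members before induction and in the size of the response of 2. At 0h, Etv4 was 2.06 log2 units (SE 0.438, adjusted p = 0.00119) and Ets2 1.01 log2 units (SE 0.161, adjusted p = 2.94e-05) higher in clone 8, where 11.7% of all genes differed in either direction. Without the second 0h library of clone 4, which held 2 counts of Etv4, its difference was 1.12 and lost its call (adjusted p = 0.184). For Ets2 the gap stood in every group, with 11.1 to 15.9 CPM in all 8 clone 4 libraries and 21.9 to 29.3 CPM in all 8 of clone 8. Of the variation of log2 CPM over the 16 libraries, 91.8% lay between clones for Ets2 and 71.9% for Ets1, whereas 92.0% lay between groups for Erf. For Etv4, Etv5 and Etv6 the share between groups was 74.5%, 74.9% and 75.4%, and for Elk3 50.4% lay within clone and group. In the plot of these shares Elk3 therefore stands out by its grey segment and Ets2 by its blue one.

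**Figure D3:**
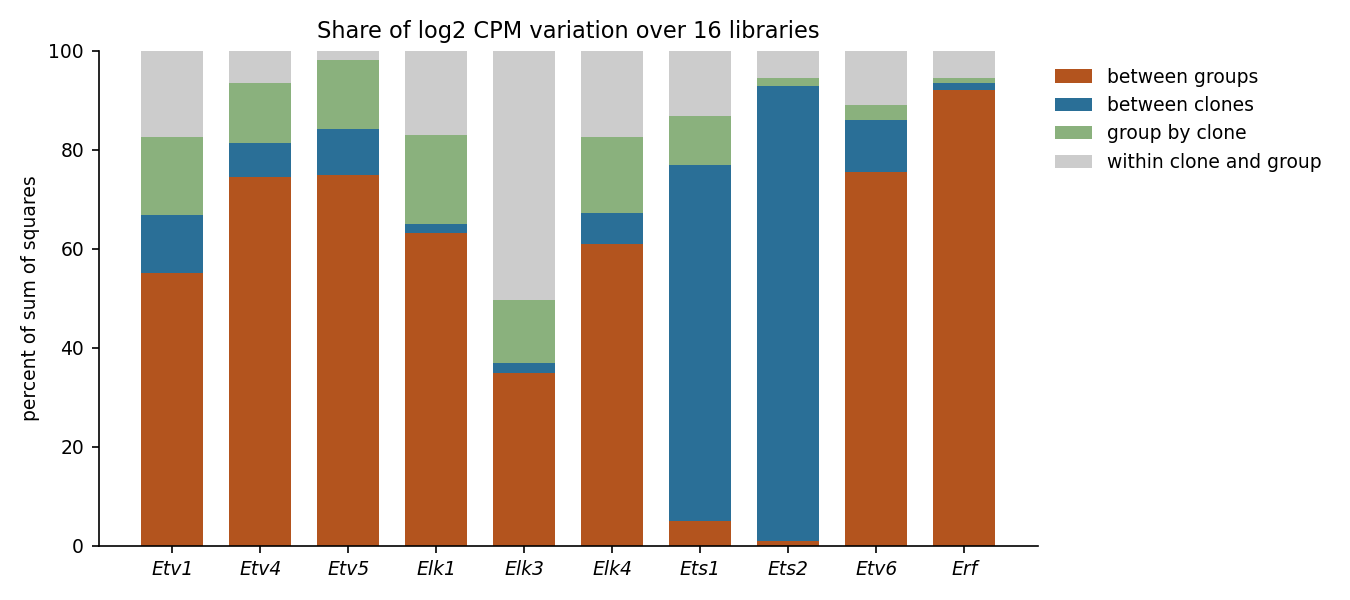
Percent of the sum of squares of log2 CPM over the 16 libraries (y axis, stacked to 100) for each ETS factor (x axis), divided between the 4 groups (orange), the 2 clones (blue), the group by clone part (green) and the libraries within a clone and group (grey). Erf is almost all orange (92.0%), Ets2 almost all blue (91.8%), and Etv4 has 74.5% orange and 12.1% green.

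The rise of Etv4 and of Etv5 was larger in clone 4. At 4h the log2 change of Etv4 was 5.12 (SE 0.306) in clone 4 and 2.10 (SE 0.224) in clone 8, a difference of -3.02 for clone 8 minus clone 4 (SE 0.461, adjusted p = 3.36e-05). For Etv5 it was 1.15 (SE 0.102) in clone 4 and 0.50 (SE 0.0984) in clone 8, a difference of -0.65 (SE 0.142, adjusted p = 0.00283). These 2 members were called at 4h, where 5.72% of all genes were, and at 2h Etv5 alone, with a difference of -0.62 (SE 0.140, adjusted p = 0.00432), where 7.94% were. The change of Etv4 from 4h to rev was -4.05 in clone 4 and -1.78 in clone 8, a difference of 2.27 (SE 0.376, adjusted p = 6.89e-05), and no other member was called in that comparison, where 13.2% of all genes were. By contrast the 4h change of Erf was 0.76 in clone 4 and 0.95 in clone 8, and their difference had a 95% interval of -0.15 to 0.52.

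The clone 4 values of Etv4 at 0h rest on 10 and 2 counts, so the size of its change there is uncertain: the difference at 4h was -4.74 without the first 0h library of clone 4 and -2.07 without the second, both called. Without the second rev library of clone 8 the difference of Etv4 at rev was 1.79 and lost its call (adjusted p = 0.0513). With library totals the difference of Etv5 was -0.04 at 2h and -0.34 at 4h, both uncalled (adjusted p of 0.948 and 0.712). At 2h, Etv4 (-2.73, adjusted p = 0.0251) and Elk3 (-2.36, 0.0465) were called without the first 0h library of clone 4. Elk4 there had -0.67 (adjusted p = 0.0815), and was called without the second 0h library (-1.04, 0.0300) or the first 2h library (-0.86, 0.0248) of clone 4. Etv1 had a difference of 1.16 at rev against 4h (adjusted p = 0.107) and was called without the second rev library of clone 8 (1.78, 0.0496).

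**Figure D4:**
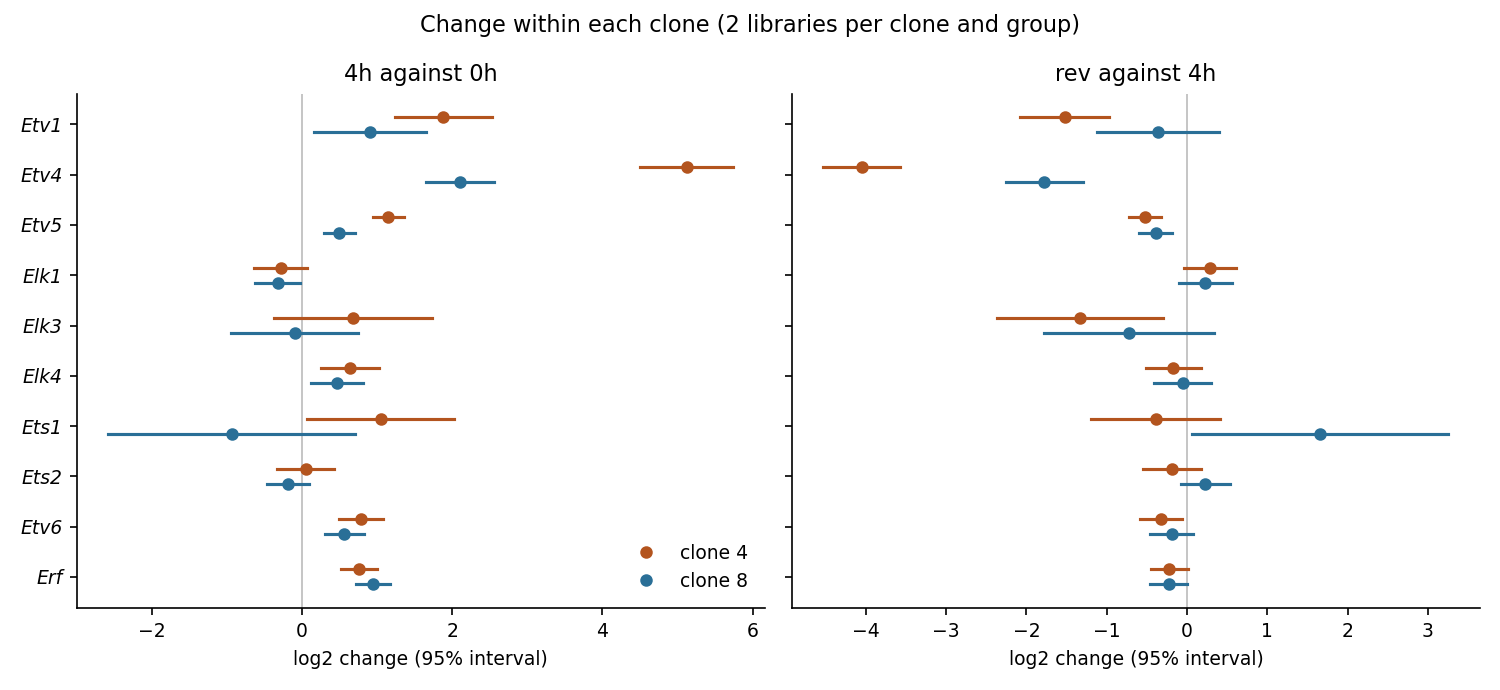
Log2 change (x axis, points) with its 95% interval (lines) of each ETS factor (y axis) in clone 4 (orange) and clone 8 (blue), for 4h against 0h and rev against 4h, with 2 libraries per clone and group and a separate x range per panel. Etv4 has the widest gap between clones, 5.12 against 2.10 at 4h, and the intervals of Erf overlap in both panels.

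The 5 genes whose log2 CPM followed each PEA3 gene most closely over the 16 libraries, after the mean of each clone was subtracted, are given as a description. The libraries share depth and groups, so many genes have high values. For Etv4 they were Manba (r = 0.953), a lysosomal mannosidase, Cdk17 (0.950), Ppp2r5a, Nfkb1 and Id1 (0.943), an inhibitor of helix-loop-helix factors that averaged 0.453 CPM at 0h, 12.9 CPM at 4h and 0.535 CPM at rev. For Etv5 they were Adam23 (r = 0.959), Trh (0.956), which encodes the precursor of thyrotropin-releasing hormone, Slc39a14, Nr0b1 and Zbtb2 (0.947). For Etv1 they were Wdr1 (r = 0.946), Ubl3, Soga3, Tfpi and Nol10 (0.928). Among pairs of members the highest values were 0.870 for Etv4 with Etv5 and 0.861 for Etv5 with Etv6. Cdk17 lies on the other strand beside Elk3 and shares 6.945% of the exon length of Elk3, and the strand setting of the counting is not given in the sources used here.

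Of 16 other ETS family genes, 8 were tested, and at 4h against 0h none was higher and 2 were lower, with a median log2 change of -0.25. Over all tested genes 7.35% were higher and 5.56% lower. Elf3, an epithelial ETS factor, changed by -1.32 (SE 0.220, adjusted p = 0.000564) and Spic, an ETS factor related to Spi1, by -1.23 (SE 0.246, adjusted p = 0.00253). Elf3 and Spic changed by -2.15 and -2.10 in clone 4 and by -0.83 and -0.84 in clone 8. Both were higher at rev than at 4h, by 1.14 (adjusted p = 0.00268) and 2.10 (adjusted p = 1.59e-05). Spic averaged 14.1 CPM at 0h, 5.76 CPM at 4h and 25.4 CPM at rev. At 2h Gabpa (0.36, adjusted p = 0.0156) and Elf1 (0.55, adjusted p = 0.0426) were higher and Elf3 (-1.40, adjusted p = 0.000242) lower, where 9.49% of all genes were higher and 7.48% lower.

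The targets and partners of the ternary complex factors were followed from lists chosen with earlier results of these data known. Of 9 tested serum response element targets, 7 were higher at 2h and 7 at 4h against 0h, and none was lower at either time. Over all tested genes 9.49% were higher at 2h and 7.35% at 4h. Against 2h, 4 targets were lower at 4h (Egr1, Fos, Ier2 and Mcl1), where 6.36% of all genes were. Egr1, an immediate-early zinc finger factor, averaged 2.10 ± 1.29 CPM (SD, n = 4) at 0h, 144.7 ± 134 CPM at 4h and 4.48 CPM at rev, with a log2 change at 4h of 6.59 in clone 4 and 4.16 in clone 8. Egr3 averaged 0.0259 CPM at 0h, under the level of 3 counts, and 9.73 ± 10.6 CPM at 4h. Arc changed by 1.99 (SE 0.389, adjusted p = 0.00218) at 4h, with 3.43 in clone 4 and 0.61 in clone 8. Srf itself, which stands in both lists, changed by 0.49 (SE 0.135, adjusted p = 0.0218) at 4h, with 0.90 in clone 4 and 0.06 in clone 8, and was the 1 gene called of 3 tested in the list of serum response factor and its partners. The median of the 9 targets at 4h was 1.53 log2 units, against 0.61 for the ETS members.

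Of 12 genes known to be under Capicua or to feed back on the MAPK pathway, 8 were higher at 2h and 11 at 4h. Over all tested genes 9.49% and 7.35% were higher at these times. At rev against 4h, 10 of the 12 were lower, where 5.1% of all genes were. The median log2 change of the 12 at 4h was 2.17. This list was chosen with earlier results of these data known. Spry4, a Sprouty inhibitor of the pathway, averaged 2.02 ± 1.03 CPM at 0h, 141.4 ± 101 CPM at 4h and 1.51 CPM at rev, with a log2 change at 4h of 5.78 (SE 0.348, adjusted p = 5.48e-09). The change was 7.35 in clone 4 and 4.39 in clone 8. Ccnd2 went from 0.263 to 16.8 ± 17.4 CPM and Phlda1 from 0.347 to 13.9 ± 13.0 CPM, both from at most 3 counts in each 0h library. Their log2 changes at 4h were 6.48 and 6.14 in clone 4 and 3.23 and 3.14 in clone 8. Of 9 genes that control PEA3 abundance, namely Capicua, its partners of the Ataxin family, and the ubiquitin ligase that degrades PEA3 proteins, 1 was called higher at 4h and none lower, a share near the 7.35% and 5.56% of all genes. This was Trib1, a pseudokinase adaptor of that ligase, with a log2 change of 1.08 (SE 0.263, adjusted p = 0.0102) at 4h and -1.82 (adjusted p = 0.000337) at rev against 4h. Its change at 4h was 1.78 in clone 4 and 0.42 in clone 8. Cic, the gene of Capicua, had 0.13 (adjusted p = 0.358). Of 10 RAF, MEK, ERK and RSK kinase genes, Braf alone was called at 4h (0.56, adjusted p = 0.0395), with 1.21 in clone 4 and -0.09 in clone 8. Here too the shares of all genes were 7.35% higher and 5.56% lower.

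**Figure D5:**
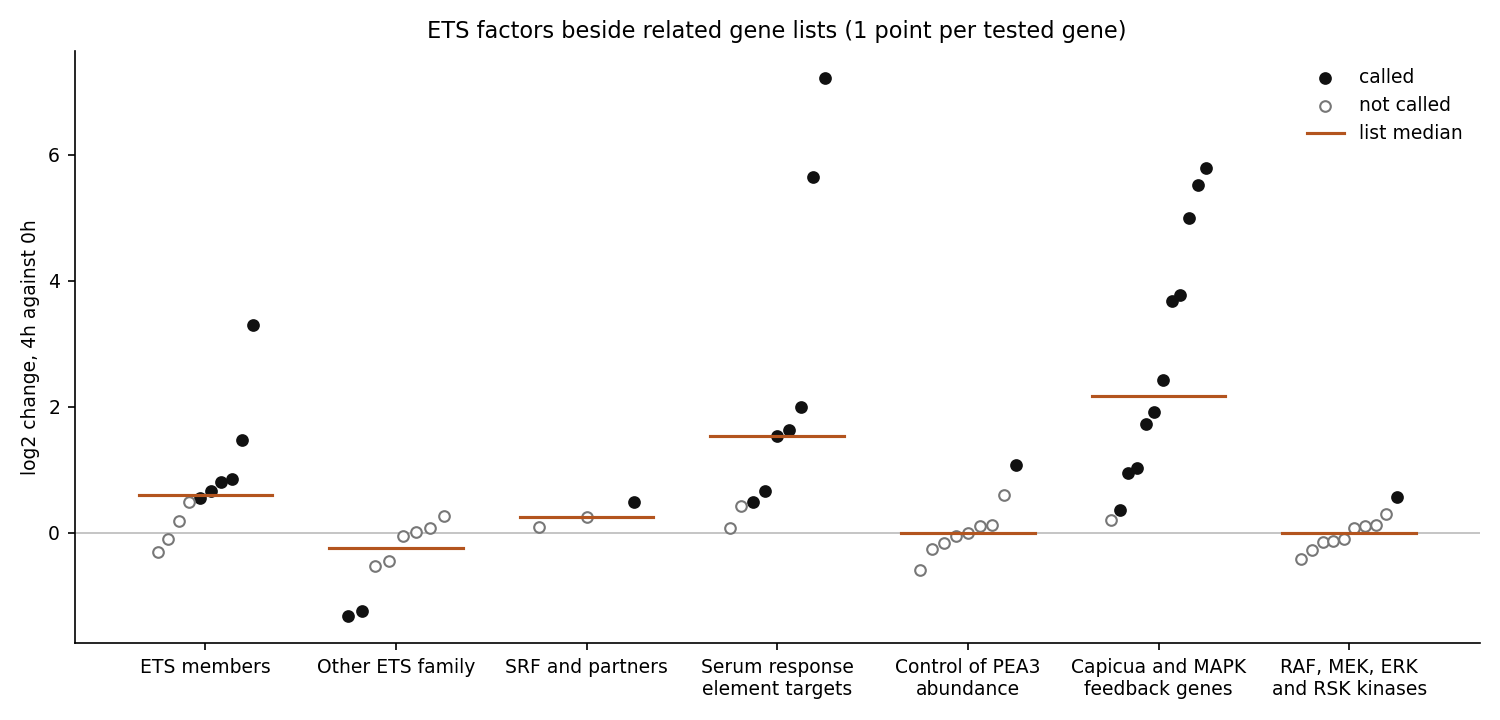
Log2 change at 4h against 0h (y axis) of every tested gene in the ETS members and 6 related lists (x axis); filled points passed an adjusted p under 0.05, open points did not, and orange bars are list medians. Medians are 0.61 for the ETS members, 1.53 for serum response element targets and 2.17 for Capicua and MAPK feedback genes, and the 2 called genes below 0 are Elf3 and Spic.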

How the data were processed

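RNA from 16 libraries of 2 clones in 4 groups, taken from the sample titles, was depleted of ribosomal RNA and prepared with a NEBNext Ultra II kit, per the labels' protocols. Sequencing data were handled with bcl2fastq 2.19.1 and STAR 2.5.3a on the build mm10, per the submitters' processing notes; the counting program, annotation and strand setting are not given in the sources used here. The authors deposited 1 table of raw whole-number counts per gene, without normalization. Symbols, coordinates and exon lengths came from GENCODE M21, which matched 52489 of 52636 IDs, and 147 did not match.

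The counts entered the quasi-likelihood test of edgeR 4.0.16 in R 4.3.3 after filterByExpr by group (minimum count 10, minimum total 15) and TMM scaling, with group and clone in the model and Benjamini-Hochberg adjustment over all 12742 tested genes. Called means an adjusted p under 0.05. Changes within a clone and differences between clones came from a fit with 1 mean for each of 8 group and clone pairs. Standard errors are the log2 change over the root of the F statistic. A prior count of 2 was added for log2 CPM. The first principal components used the 500 most variable genes. Markers and gene lists were written by hand, and from each list the 3 largest called changes at 4h against 0h were named, beside all 10 members and the 5 genes most like each PEA3 gene, leaving out predicted genes; genes named further by counts of 5 or fewer were chosen after their values were seen. The members and lists were chosen with earlier results of these data known. The procedure was tested on simulated data for 4h against 0h with 12742 genes: 72 of 100 genes changed by 1 log2 unit and 97 of 100 changed by 2 were called, with 10 false calls. Counts of same-clone libraries within a group gave a chi-square of 4.36 to 67.2 per degree of freedom, above sampling noise, and none was merged. Alternatives were the replicate block, no clone term, DESeq2 1.42.0, other scalings, no filter, a threshold of 0.01, each clone alone and leaving out each library.

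Exons shared with another gene made up 6.945% of Elk3, 2.93% of Elk4, 2.26% of Etv6 and 1.41% of Elk1, and none of the other 6 members.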

Additional observations from a re-analysis of the deposited data

Results flagged for a closer look

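The response to induction differed between the clones for 2 members, by the interaction of group and clone in edgeR. The difference of the 2h against 0h change, clone 8 minus clone 4, was -0.62 for Etv5 (adjusted p = 0.00432). At 4h against 0h it was -3.02 for Etv4 (adjusted p = 3.36e-05) and -0.65 for Etv5 (adjusted p = 0.00283). At rev against 4h it was 2.27 for Etv4 (adjusted p = 6.89e-05). Each clone is 1 line with 2 libraries per group, so these values compare 2 lines. In none of the 40 sets of 4 libraries, 1 per member and group, did a library stand outside the others by Dixon's test. Each set held 2 libraries of each clone, so a gap between the clones widens its range and makes a flag hard to reach. The rate of about 1 in 20 by chance holds only for sets without such a gap. The absence of flags therefore does not exclude outliers.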

How the results depend on the processing

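Of 2410 values of members under alternatives, 2305 kept their direction and their side of the threshold, 81 lost and 24 gained a call, and none that was called reversed; 95 uncalled values changed sign. Numbers of members called moved by over 1.5 times as follows. Without the clone term they were 3 at 2h against 0h, 1 at rev against 4h, 1 at rev against 0h and 3 for 2h and 4h against 0h and rev. At an adjusted p under 0.01 they were 3, 1 and 1 for the first 3 of these. With library totals they were 3 at 2h against 0h, 0 at rev against 0h, 2 at rev against 2h, and 0 and 1 for the clone differences at 2h and 4h. At 4h against 2h they were 3 in clone 4 alone (Etv1, Etv4 and Elk1) and 2 by DESeq2, at rev against 2h 2 without a filter and 1 in clone 8 alone, and at rev against 0h 1 in clone 8 alone.

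Leaving out each library gave 3 to 6 members at 2h against 0h, 5 to 6 at 4h against 0h, 1 to 2 at 4h against 2h, 1 to 4 at rev against 4h, 1 to 4 at rev against 0h, 0 to 0 at rev against 2h and 5 to 6 for 2h and 4h against 0h and rev. For the clones it gave 1 to 2 at 0h, and 1 to 3, 2 to 2 and 1 to 1 for the differences at 2h, 4h and rev. The library numbers did not pair the samples: differences between library 1 and 2 of a clone correlated at -0.133 to 0.119 between groups (12 pairs). With the replicate block, the members called were 4 at 2h against 0h, 6 at 4h against 0h, 1 at 4h against 2h, 2 at rev against 4h, 2 at rev against 0h, 0 at rev against 2h and 6 for induced libraries, with 2, 1, 2 and 1 for the clones.

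Over all genes, calls at 2h against 0h numbered 2162, or 446 with library totals, 757 without the clone term and 921 at 0.01; at 4h against 0h 1645, or 508, 546 and 694; at 4h against 2h 1547, or 385, 266 and 457; at rev against 4h 1224, or 530, 251 and 494; at rev against 0h 1332, or 449, 273 and 450; at rev against 2h 227, or 157, 41 and 71; and for induced libraries 1055, or 474, 270 and 442. In clone 4 alone they were 3376 at 4h against 2h, 3048 at rev against 4h and 1748 for induced libraries, and in clone 8 alone 803 at 4h against 0h and 813 at rev against 4h. Without 1 library the lowest numbers were 1270 at 2h against 0h, 959 at 4h against 0h and 676 at rev against 0h (each without the first 0h library of clone 4), 703 at 4h against 2h (first 4h library of clone 4), 636 at rev against 4h (second rev library of clone 4), 80 at rev against 2h (first rev library of clone 4) and 738 for induced libraries. For the clone level at 0h the number was 1489 (880 by DESeq2, 418 with library totals). For the clone differences it was 1012 at 2h (526 and 476), 729 at 4h (443 and 153) and 1681 at rev (999 and 1895). These 4 fell to 657 and 428 without the second 0h library of clone 4, and to 283 and 726 without the first 4h library of clone 4.

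Library totals moved the median log2 change of all genes to 0.11 at 2h against 0h, -0.14 at 4h against 2h, -0.20 at rev against 4h, -0.24 at rev against 0h, -0.35 at rev against 2h and 0.15 for induced libraries. The share of higher genes among all called moved from 55.9% to 78.0%, 46.9% to 15.8%, 52.7% to 23.6%, 43.2% to 8.28% and 58.5% to 90.5% for 2h against 0h, rev against 4h, rev against 0h, rev against 2h and induced libraries. Depth limited Ets1, Elk3 and Etv1, with 1 to 79 counts per library, and Etv4 in clone 4 at 0h.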
